A study of Homo sapiens with 10 samples.

Results

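Of 6597 regions built from HSF1 peaks in HCT116 cells, 234 carried a peak in every list from cells without FBXW7 and in no list from unmodified cells. HSF1 was located by ChIP-seq, the sequencing of DNA recovered with an antibody to the protein that sits on it, and each list holds the peaks that the authors called in 1 library. HCT116 is an established human colon cancer line. The 6 libraries were FBXW7 KO cells held at 42 °C for 1 h (2 replicates), untreated FBXW7 KO cells (1), unmodified (WT) cells held at 42 °C for 1 h (2) and untreated WT cells (1). The labels do not say whether the KO line is a single clone or whether replicates came from separate cultures, so differences between replicates may be technical.

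The regions were chosen by joining peaks of the 6 lists that overlapped by at least 1 bp and keeping those that had one in both KO heat shock libraries and in untreated KO but in none of the 3 WT lists. They make up 3.55% of all regions. The called peaks of both lines thus chose them, and the difference between KO and WT is a description here, with no test. A region without a WT peak fell below the limit of the peak caller in WT libraries, which does not show that HSF1 was missing there. The KO lists held 1566, 3257 and 2866 peaks (heat shock replicates 1 and 2, untreated), and the WT lists 225, 131 and 79. No WT peak was narrower than 561 bp, whereas the narrowest KO peaks were 59 to 63 bp. Read depth was unknown for all 6 libraries, and neither depth nor calling width can be told apart from the line.

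HSF1 is the transcription factor of the heat shock response. In resting cells most of it is held as an inactive monomer by chaperones, and heat or misfolded protein releases it to form trimers that bind heat shock elements, inverted repeats of a short GAA-containing unit, in front of chaperone genes. In cancer cells HSF1 is also active without heat, at a wider set of genes. FBXW7 is the subunit of an SCF ubiquitin ligase that recognises phosphorylated proteins for degradation, and HSF1 is among its known substrates. Positions below are hg19, as in the peak lists. The gene table at hand is of another build, so regions are given by position, without genes or sequence, and they were not screened for repeats.

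The strongest of the 234 regions lay just below the top of the KO lists. Scores are the authors' peak scores, which rank peaks within a list and are not known to share a scale between lists. The region chr22:29664109-29664977 led, with scores of 703 and 1553 after heat shock (replicates 1 and 2) and 1199 untreated, and it ranked 13, 15 and 17 in these lists. It was the only one of the 234 whose 3 scores were all at least 500. The next, chr17:62703132-62703813, scored 396.5 and 631 after heat shock and 1017 untreated. At chr5:133706413-133707057 the scores were 339 and 562 after heat shock and 1061 untreated. Both had their highest score and their best rank (29 and 23) in the untreated list.

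Other strong regions stood on 6 chromosomes. The region chr1:174968915-174969476 scored 342, 592 and 513 (heat shock replicates 1 and 2, then untreated, as in all lists of 3 values below). The region chr7:73417522-73418291 scored 319, 523 and 536, and chr7:1199688-1200282 scored 278, 613 and 742. These regions had similar scores in heat shock replicate 2 and untreated cells and lower ones in replicate 1. At chr15:78556534-78557003 the scores were 315, 317 and 552, and at chr22:41682114-41682721 they were 289, 383 and 668, so that the untreated score was highest. At chr19:18402390-18403063 they were 311, 577 and 328, and at chr19:49164085-49164668 they were 283, 516 and 351. In both chromosome 19 regions heat shock replicate 2 was highest, and the ranks of both heat shock lists (62 and 65, and 69 and 74) were nearer the top than the untreated ranks (124 and 115). The regions chr11:1051075-1051552 (296, 350 and 407) and chr11:112045787-112046333 (280, 347 and 270) had the scores closest together among these 12. Their ranks were not the closest (66, 124 and 98, and 71, 128 and 156), and scores may not share a scale between lists.

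**Figure D1:**
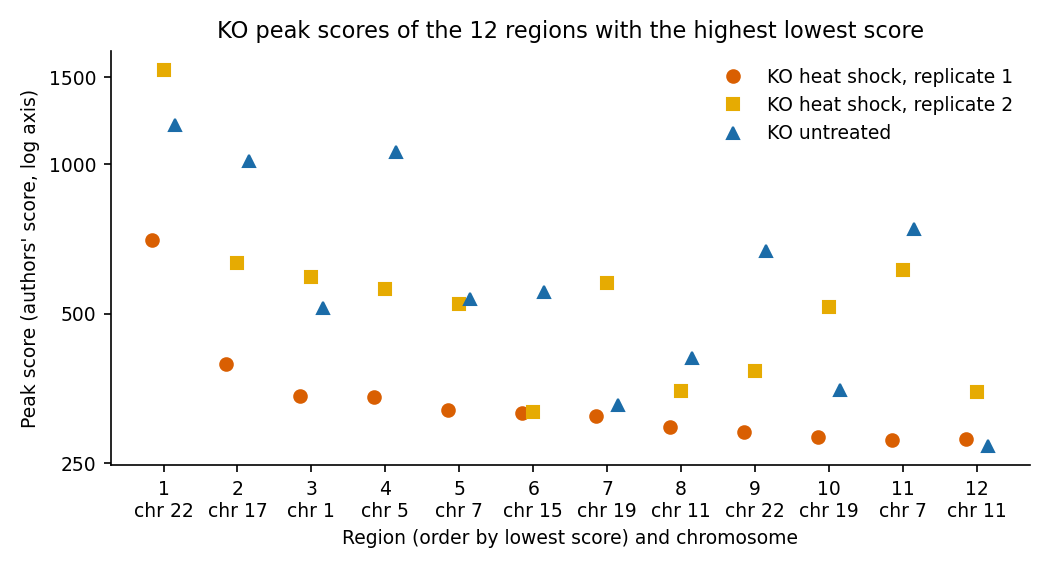
Authors' peak scores (log axis) of the 12 regions with the highest lowest score, 1 symbol per KO library, ordered by that lowest score and marked with their chromosome. Replicate 1 of heat shock gave the lowest score in 11 of the 12 regions, and the region on chromosome 22 at the left scored 703, 1553 and 1199.

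Most of the 234 regions ranked in the upper part of each KO list, below the leaders. Their median score was 83.5 in heat shock replicate 1, 193 in replicate 2 and 178 in untreated cells, against 59.6, 58.1 and 58.6 for all peaks of each list. The median rank was 273.5, 236.5 and 262, and 27, 25 and 29 of the regions were among the 100 highest peaks of each list. Among the 200 highest peaks there were 83, 91 and 88. These regions held 245 of the 1566 peaks of heat shock replicate 1 (15.6%), 241 of the 3257 of replicate 2 (7.40%) and 239 of the 2866 of untreated KO (8.34%). The score was lowest in heat shock replicate 1 at 181 of the 234, and that library also has the shortest of the KO lists.

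Regions of all 3 KO lists lacked a WT peak more often at low KO scores than at high ones. Of the 355 regions in all 3 KO lists, 121 had a peak in at least 1 WT list: 54 in 1, 30 in 2 and 37 in all 3. Where the lowest KO score was 50 to 60, 55 of 66 regions had no WT peak, and between 60 and 75 this held for 57 of 65. Between 75 and 100 it held for 39 of 50, between 100 and 150 for 37 of 55 and between 150 and 200 for 24 of 36. The shares were lower above that: between 200 and 300 it held for 15 of 31, and between 300 and 500 for 6 of 29. At 500 to 1000 it held for 1 of 16, and at 1000 or more for none of 7. The 121 regions with a WT peak had median scores of 230.1, 500.5 and 443, above those of the 234. Because WT peaks were part of the choice, these shares describe the lists and were not tested.

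**Figure D2:**
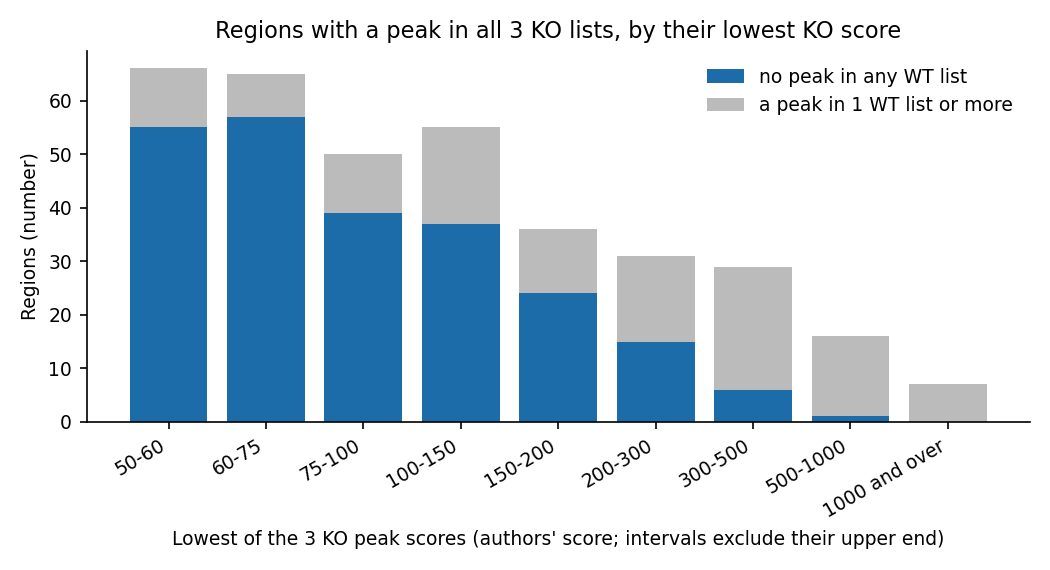
Number of regions in all 3 KO lists by the lowest of their KO scores, divided into those without any WT peak (blue, 234 in all) and those with a WT peak (grey, 121). The blue part falls from 55 of 66 in the lowest interval to none of 7 in the highest.

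Some regions met or missed the rule through a score close to the lowest of its list. The 3 lowest scores of a member were 50.8 in untreated KO at chr16:33293807-33294254, 50.9 in heat shock replicate 1 at chr16:33866234-33866524 and 51.0 in the same library at chr16:81617338-81618012, all close to the lowest score in their list. Just outside, chrX:102942205-102943612 had KO scores of 167, 504 and 597 and missed the rule through an untreated WT score of 50.4. Likewise chr21:35295975-35297239 (KO scores 79.1, 239 and 188) had a WT heat shock replicate 1 score of 50.55, and chr2:85765243-85767404 (119, 436 and 417) an untreated WT score of 50.55. Others missed a KO list. The regions chr2:70369672-70370072 (276 and 326) and chr8:33330665-33331158 (268 and 312) had a peak in heat shock replicate 2 and untreated KO but none in replicate 1. The region chr8:145515377-145515603 (399 and 248) had both heat shock peaks and no untreated one.

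The 234 regions were spread over all 24 chromosomes. Chromosome 17 held 25, chromosome 19 held 23 and chromosome 1 held 22. Chromosome 19 carried 9.83% of them, 6.61% of the 121 with a WT peak and 3.52% of all regions. Of its 232 regions, 9.91% were members. Chromosomes 1, 10, 16 and 17 together held 28.6% of the 234, 24.8% of the 121 with a WT peak and 42.6% of the 5718 regions found in a single KO list and no WT list. Chromosome 10 was the lowest, with 8 members among 546 regions (1.47%). These 4 chromosomes are the ones with the most regions (995, 546, 459 and 773). Most regions come from a single KO list, so a high share of that set on them follows from this choice of chromosomes. The lower share of the 234 is a description and was not tested.

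Members on chromosome 19 were among the stronger ones. Their median scores were 103, 271 and 237, and the untreated scores ran from 54.7 to 674. Apart from the regions already named, chr19:11230671-11231217 scored 265, 511 and 376, chr19:1021581-1022002 scored 243, 512 and 450, and chr19:4762959-4763486 scored 105, 552 and 674. The last of these, named after its values were seen like the other examples in this paragraph, ranked 199 in heat shock replicate 1 and 70 and 54 in the other lists. The peak centres of the 3 lists at chr19:1021581-1022002 lay within 3 bp of each other, the closest of all 234.

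**Figure D3:**
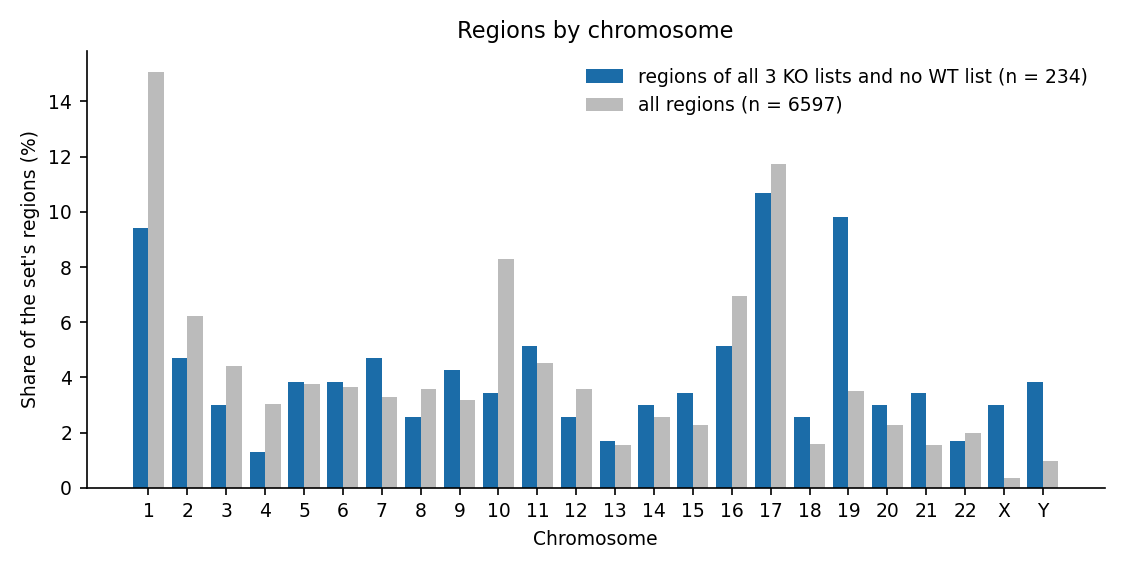
Share of the 234 regions (blue) and of all 6597 regions (grey) on each chromosome, in percent of each set. On chromosomes 19, X and Y, for example, the blue bars stand at 9.83, 2.99 and 3.85% and the grey at 3.52, 0.364 and 0.985%, while on chromosomes 1 and 10 the blue bar is the lower. The 121 regions in all 3 KO lists with a WT peak are not drawn, and their shares on these chromosomes were 6.61, 0.826 and 6.61% (19, X and Y).

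The X and Y chromosomes both had few regions and a high share of members, with different spacing. Of the 121 regions in all 3 KO lists with a WT peak, 0.826% lay on X and 6.61% on Y, against 2.99% and 3.85% of the 234. A high share on Y was thus not particular to the members. On X, 7 of 24 regions were members (29.2%). They had no other region within 20000 bp and at least 89.85 kb to the nearest. Lacking a neighbour within 20000 bp was not special to X, since only 78 of the 234 members had one. The median distance from a member to the nearest other region was 50.3 kb, which is shorter than at all 7 on X. The median scores of the X members were 83.9, 355 and 262. Heat shock replicate 2 scored above replicate 1 at all 7, which was not special to X. Replicate 1 was the higher at only 24 of the 234 members and 11 of the 121 regions with a WT peak. At chrX:77359244-77359766 the scores were 140.4, 369 and 513, and at chrX:47400398-47400893 they were 179, 469 and 262.

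On Y, 9 of 65 regions were members (13.8%), with median scores of 69.0, 81.3 and 125.5. Each had 13 to 27 other regions within 20000 bp. In the stretch chrY:13464433-13480509, 6 members lay among 17 regions in 16077 bp, and 2 of the 17 had a WT peak. The highest lowest score there was at chrY:13465796-13466201, which scored 167, 193 and 139, and chrY:13479432-13479774 scored 217, 182 and 93.8. The other members stood at chrY:58984853-58985322 (94.5, 111 and 167), chrY:58986002-58986250 (62.6, 60.2 and 98.1) and chrY:58996376-58996688 (69.0, 76.3 and 81.9). The Y members thus lay in dense groups of peaks, and the part of repeated sequence in this was not tested.

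Away from Y, members seldom lay close together. With a limit of 10 kb, 18 of the 234 fell into 6 clusters and 216 stood alone. Besides those on Y, 3 members lay in chr18:106786-109835, 3 in chr2:133016584-133032756, 2 in chr1:2583590-2586471 and 2 in chr17:79068502-79075523. On chromosome 18, the members chr18:107984-108556 and chr18:108571-109835 were 14 bp apart. The first scored 225, 189 and 366 and the second 74.9, 156 and 366. Their untreated scores were nearly equal and their heat shock scores were not.

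Few members lay near a WT peak, but the WT lists are short and the rule left out regions that overlap a WT peak. Distances to WT peaks were not computed for other regions, so those below are not read as a trait of the members. The median distance to the nearest WT peak was 2423 kb, and 18 members had one within 10 kb. Of these, 9 were the members on Y, 3 were those of the chromosome 2 cluster and 3 lay on chromosome 17. The others were chr21:11140185-11140594, chr8:58118223-58118615 and chr10:121410734-121411197. The last had the highest lowest score of the 18: it scored 262, 423 and 431, ranked 81, 100 and 91, and had a WT peak 6483 bp away. The member chr17:44024199-44024717, 9596 bp from a WT peak, scored 264, 261 and 120.

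The joined regions were 85 to 1265 bp long, with a median of 450 bp and an interquartile range of 378 to 536 bp. Regions in all 3 KO lists with a WT peak had a median of 1486 bp, which includes the wide WT peaks, and regions in a single KO list 162 bp. The highest-scoring peak of each region had a median width of 224.5 bp in heat shock replicate 1, 409.5 bp in replicate 2 and 375 bp in untreated cells. The medians over all peaks of these lists were 155, 181 and 173 bp, so members were wider than the bulk of each list. The rule favours this, because peaks of 3 lists had to overlap and the highest-scoring peak was taken. In the 121 regions with a WT peak the KO peaks were wider still, with medians of 346, 512 and 516 bp. Replicate 1 gave the narrowest peak at 183 of the 234. This was not particular to the members. Its peak was wider than that of replicate 2 at 29 of the 234 and at 7 of the 121 with a WT peak. It was wider than the untreated peak at 39 and 18. The difference between the heat shock replicates was larger than that between replicate 2 and untreated cells, so the widths did not divide by treatment.

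Wider peaks had higher scores. Across the 234 regions, which are not independent replicates, Spearman's rho of score and width was 0.70, 0.73 and 0.75 in the same order of libraries. The caller computes both from the same reads, so the 2 measures are not independent. A few regions were wide for their score. The widest, chr18:108571-109835 (1265 bp), had peaks of 474, 1228 and 1265 bp. At chr17:41400071-41401297 all 3 peaks were wide (1173, 1051 and 1154 bp), with scores of 233, 582 and 736. At chr5:10249515-10250710 the peak was 1196 bp in heat shock replicate 2 and 464 and 612 bp in the other lists, with scores of 175, 860 and 585. The narrowest region, chr21:9699562-9699646, was 85 bp and scored 99.98, 78.6 and 59.8 (it was chosen after its values were seen).

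**Figure D4:**
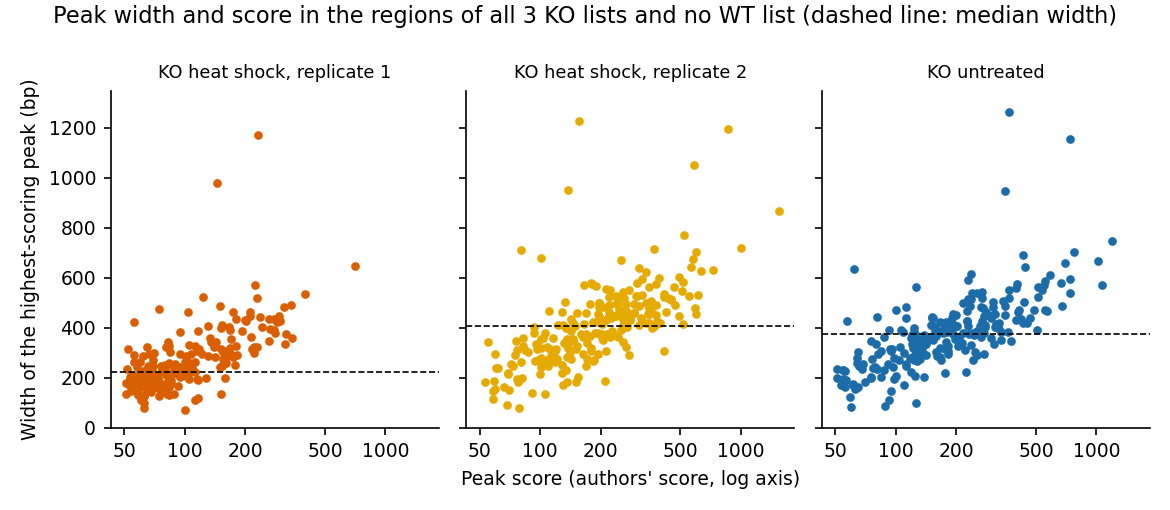
Width in bp of the highest-scoring peak against its score (log axis) in each of the 234 regions, 1 panel per KO library. The dashed median width is 224.5 bp in heat shock replicate 1, 409.5 bp in replicate 2 and 375 bp in untreated KO, and wider peaks score higher in each panel.

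The rule requires that the KO peaks of a region join through overlap, so their centres had to lie close together, and the distances are a description. Centres of the 3 peaks spanned a median of 62.75 bp, at most 100 bp in 179 regions and at most 200 bp in 226. Median distances were 36.5 bp between the heat shock replicates, 41.5 bp between replicate 1 and untreated and 32.75 bp between replicate 2 and untreated. The distance between replicates thus lay between the distances of each replicate to untreated cells. A list held more than 1 peak in 19 regions, such as chr1:1098635-1099418, which has 5 peaks in all and scored 153, 491 and 433. The largest span, 434 bp, was at chr11:65189584-65190344, which also has 5 peaks.

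On heat shock the 234 regions moved both ways in rank, a relative measure that would not show a change shared by all of them. To compare lists of unequal length, each region was ranked by score among the 355 regions found in all 3 KO lists, and its shift was taken as the untreated rank minus the heat shock rank, positive when it stood nearer the top after heat shock. The median shift was 4.75 ranks in replicate 1 (interquartile range −62 to 60) and −3.5 ranks in replicate 2 (−45.9 to 40.25). With 2 heat shock libraries and 1 untreated there is no test. The median absolute difference in rank was 51 between the heat shock replicates, 62 between replicate 1 and untreated, and 44 between replicate 2 and untreated. For the set as a whole, the distance between replicates thus lay between the distances of each replicate to untreated cells. Ranks are relative and the 234 make up most of the ranked set, so a gain or loss shared by all of them would not show. Spearman's rho of the scores was 0.54 between the heat shock replicates, 0.38 between replicate 1 and untreated, and 0.69 between replicate 2 and untreated (234 regions each).

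Some regions changed rank in the same direction in both replicates. A region was counted when both shifts were at least 35.5 ranks, which is 0.1 of the ranked set. By this count 46 of the 234 stood nearer the top after heat shock and 38 farther from it, against a background of 15.8% and 13% of the 355 ranked regions, which include them. These came to 19.7% and 16.2% of the 234, while the 121 with a WT peak gave 10 and 8. Both shifts use the same untreated list, so a single high or low untreated score moves both the same way. The counts depend on the setting: they were 137 and 145 without heat shock replicate 1 and 89 and 87 without replicate 2, where a shift in the remaining library sufficed, and 19 and 19 with a score of at least 100. In 60 of the 84 regions the smaller shift was larger than the distance between the replicates. These were 33 of the 46 nearer the top and 27 of the 38 farther from it. Among all 355 ranked regions the same held for 41 of 56 and 30 of 46, so the count is not a trait of the members. The members that stood nearer the top had median scores of 120, 239 and 115, and those farther from it 62.9, 148 and 243.

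Regions nearer the top after heat shock were led by chr16:33293807-33294254. It scored 239 and 243 after heat shock and 50.8 untreated, the lowest untreated score of the 355, and its ranks went from 355 to 78 and 173. A separate region 24 bp away, chr16:33294279-33294359, had a peak in heat shock replicate 1 alone (score 92.4). Joining peaks closer than 1000 bp left the mean shift at 229 ranks, against 229.5. At chrX:100670414-100670879 the scores were 141 and 355 against 127, and the rank went from 259.5 to 136 and 118. At chr1:8151119-8151534 they were 215 and 378 against 160, and the rank went from 226 to 87 and 107. In each of these the heat shock ranks were closer to each other than to the untreated rank, which the choice of regions by the smaller shift favours. The same held at chr6:166814407-166814612 (117 and 210 against 75.3) and chr2:44271349-44271788 (102 and 258 against 94.6).

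At chr19:14628563-14628973 the shift depended on how peaks were joined. The region scored 92.3 and 223 after heat shock and 70.2 untreated, and its rank went from 327 to 198 and 184. A separate region 143 bp away, chr19:14629117-14629400, showed the opposite order, with an untreated score of 266, a score of 84.5 in heat shock replicate 2 and no peak in replicate 1. With peaks closer than 1000 bp joined, the mean shift of the site turned from 136 to −37.5 ranks. The data thus show 2 neighbouring peaks with opposite orders of score, not a change of the site in one direction.

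Regions farther from the top after heat shock were led by chr7:56119231-56119728. It scored 64.1 and 115 after heat shock and 420 untreated, and its rank went from 89 to 286 and 283, so that the replicates stood 3 ranks apart. At chr1:75198547-75199111 the scores were 70.5 and 260 against 736, and the rank went from 45 to 258 and 163. At chr21:35445342-35445692 they were 71.1 and 164 against 336, with a rank of 114 untreated and 256 and 232 after heat shock. The smaller shift, by which these regions were chosen, exceeded the distance between replicates in all 3. It also did at chr2:99953502-99953881 (55.25 and 69.1 against 172), chr7:158766869-158767277 (56.2 and 101 against 201) and chr18:108571-109835. The last had its neighbour 14 bp away, and joining peaks closer than 1000 bp brought its mean shift from −133 to −40.5 ranks.

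**Figure D5:**
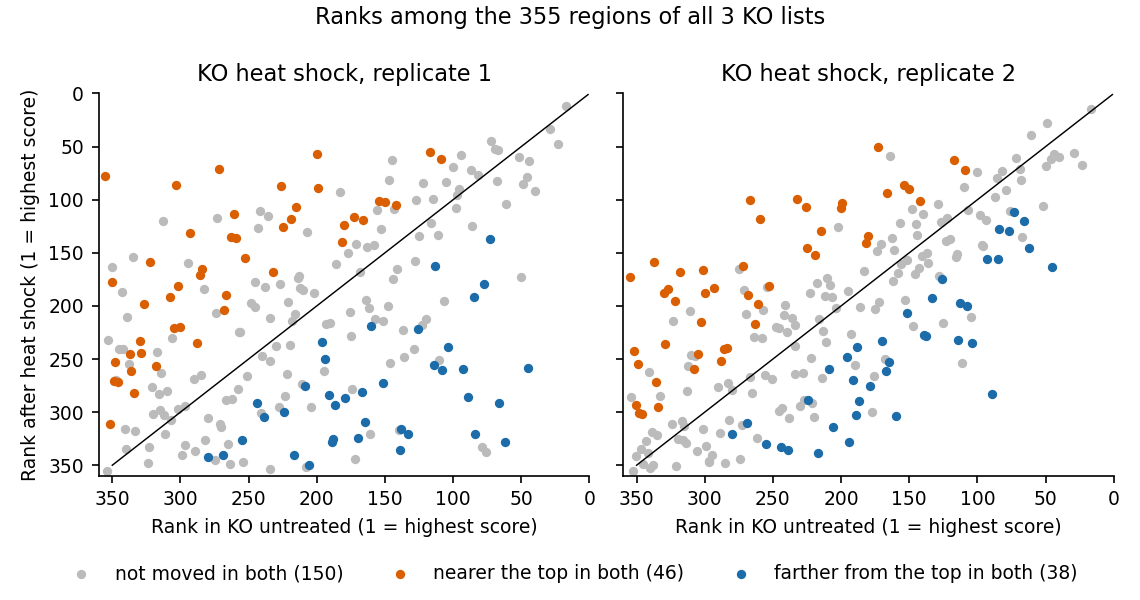
Rank of each of the 234 regions after heat shock (vertical) against its rank in untreated KO (horizontal), among the 355 regions of all 3 KO lists, 1 panel per heat shock replicate, with rank 1 at the top and right. The 46 regions nearer the top in both replicates (orange) lie above the line of equal ranks and the 38 farther from it (blue) below, and the points scatter more widely in replicate 1.

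At other regions the heat shock replicates stood far apart. The region chrX:106243535-106244052 scored 56.0 in heat shock replicate 1, 448 in replicate 2 and 466 untreated, so its ranks were 332.5, 91 and 79, and replicate 2 stood closer to untreated cells than to replicate 1. Likewise chr1:6453539-6453956 scored 55.55, 369 and 505. At chr9:16257490-16257848 replicate 1 was the highest (160, 94.7 and 120). These examples were chosen, after their values were seen, for a large distance between replicates.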

How the data were processed

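HSF1 ChIP-seq used 5 µg of an HSF1 antibody, per the labels. The submitters' processing notes list CASAVA, Bowtie 0.12.7, MACS 1.4.2 and hg19; their roles and settings are not given in the sources used here. Each deposited list gives chromosome, start, end, MACS peak name and a score; the authors called peaks in single libraries with the matching input as control, per the file labels. The 4 input libraries were not used here. The scale of the authors' deposited score is not stated, and read depth is unknown, so no precision from depth can be given.

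Groups came from the sample titles. Overlapping peaks were joined with numpy 2.4.6 and pandas 2.3.3 under Python 3.11.15; bedtools 2.31.1 gave the same 6597 regions. A region's value in a list is that of its highest-scoring peak there. In 20 simulated sets of lists, all 100 planted members were recovered in 20, as were the planted shifts, which 20 of the 100 members carried. The planted peaks overlapped by construction and lay apart from all other peaks. Their recovery checks the code and says nothing on how sure a member or a shift is. Regions were named by fixed rules: the 12 highest lowest scores, 6 largest shifts each way, 3 lowest scores, 3 widest and 6 just outside; others were chosen after their values were seen. The members, rules and lists were chosen with earlier results of these data known. No region was tied to a gene or a heat shock element, because the annotation at hand is GRCh38; the 12 gene lists and the promoter and motif shares were therefore not computed. Alternatives were a score of at least 100, joining within 1000 bp, chromosomes 1 to 22 and X, other ranks, equal list lengths, centre distance, distance to WT peaks and each heat shock library left out. Figures were drawn with matplotlib 3.10.9.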

Additional observations from a re-analysis of the deposited data

How the results depend on the processing

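The set held 234 regions, and 216 to 233 with peaks within 1000 bp joined, chromosome Y left out, KO lists cut to 1566 peaks, KO centres within 200 bp or no WT peak within 10000 bp (the last chosen after seeing the data). A score of at least 100 in every list gave 131, of which 83 were among the 234; 49 regions with a WT peak had KO scores of at least 100 and WT scores under 100. In that setting 19 regions stood nearer the top after heat shock and 19 farther from it. Leaving out 1 heat shock library gave 247 to 473 regions, the most without KO heat shock replicate 1, with 46 to 137 nearer the top and 41 to 145 farther from it; without a KO library, a shift in the other suffices. The median shift of −4.63 ranks (mean of both replicates) was smaller than the spread between replicates (SD 5.83). It became 4.75 without KO heat shock replicate 2. Without each heat shock library in turn it lay between −5.25 and 4.75 (untreated libraries were not left out). As a log2 ratio of score to the median of the 355 ranked regions in each list, it was 0.0665. The sign of the median thus depended on the setting. Both measures are relative to a set made up mostly of the members, so a gain or loss shared by all of them would not show. The mean of the 3 median widths was 336 bp, and the mean over the KO lists kept ran from 289.5 to 418 bp under alternatives. The lowest, without KO heat shock replicate 2, is a mean of 2 medians over 262 regions. The 12 named shifts had 97 rank values under alternatives, with 2 of the 12 still in the set at a score of at least 100 and 11 without KO heat shock replicate 2 (chr19:14628563-14628973 dropped out). Of these 97, 95 kept direction and call, chr19:14628563-14628973 turned to −37.5 and chr18:108571-109835 fell to −40.5 on joining within 1000 bp. No paired analysis was possible because the result comes from no test: untreated KO has 1 library. The promoter and motif alternatives were not run.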
